A study of Mus musculus with 4 samples.

Results

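The vacuolar H+-ATPase (V-ATPase) and the lysosomal scaffold that recruits mTORC1 were followed as 1 family of genes in CT26 cells with and without iRhom1. The family holds every gene symbol of the expression table that begins with Atp6v or Atp6ap, the Ragulator subunits Lamtor1 to Lamtor5, the Rag GTPases Rraga to Rragd, and Flcn, Fnip1, Fnip2, Slc38a9, Tmem199, Mtor, Rptor, Rheb, Tsc1 and Tsc2. These names matched 38 of the 21677 gene symbols. The family was selected on the measured difference between iRhom1 KO and Control libraries, in that the lower values of V-ATPase and lysosomal genes in these data were known when it was proposed. Its differences between the groups are therefore a description, and no test is drawn from them.

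CT26 is an undifferentiated mouse colon carcinoma line. RNA was sequenced in bulk from 2 libraries of Control cells, tagged S17 and S19, and from 2 of iRhom1 KO cells, tagged S18 and S20. iRhom1, the product of Rhbdf1, is a rhomboid-like membrane protein without protease activity that acts in the early secretory pathway. The iRhom1 KO cells came from a lentiviral CRISPR vector that encodes puromycin resistance. The paper states that they were selected by single clone culture and by a Western blot that lacked the iRhom1 protein. Thus 1 clone represents the genotype. A control vector line with Cas9 and no guide was made the same way. The sources call the control cells wild type in one place and a control sample in another, so which line was sequenced as Control is not known here. Both groups were grown in RPMI medium with fetal bovine serum, and no treatment of the sequenced cells is given. The paper calls its sequencing panels representative of independent experiments without saying that these libraries were separate cultures, so p-values measure only the spread between libraries, which may be technical.

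The V-ATPase is a rotary proton pump. Its cytosolic V1 domain hydrolyses ATP, its membrane V0 domain carries protons into the lumen of lysosomes, endosomes and the Golgi, and the low pH it makes is needed by lysosomal hydrolases. On the lysosomal membrane the pump contacts Ragulator, a pentamer that anchors the Rag GTPases. When amino acids are plentiful the Rag heterodimer holds mTORC1 at the lysosome, where RHEB activates it. The TSC complex switches RHEB off, and FLCN with FNIP proteins acts on the Rag heterodimer as a GTPase activator.

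Values are FPKM, fragments scaled by transcript length and library depth, as the authors made them. The step of the lowest values put the depth at about 49700000 to 53400000 fragments per library. Genes that averaged 1 FPKM or more in either group were tested on log2 of FPKM plus 0.5 with limma across 10271 genes, and a gene was called at an adjusted p under 0.05. Over these genes 21.9% were called lower and 10.7% called higher in iRhom1 KO cells, and the median log2 fold change was -0.10. With quantile normalization 1553 were lower and 1605 higher, against 2254 and 1096 without it. Chromosomes 13, 15, 17 and 5 had medians of -0.37, -0.33, -0.38 and -0.22, the other autosomes and X lay between -0.10 and -0.03, and the 29 tested mitochondrial genes had a median of -0.32. Rhbdf1 was listed at 0.538 and 0.890 FPKM in Control and 0.0940 and 0.0584 FPKM in iRhom1 KO, below the filter, and as these values equal those of the unrelated gene Apobec2 in 3 of 4 libraries they were not used to check the knockout. Leukocyte and endothelial markers, of which 2 each were in the table, summed to at most 0.023 FPKM in any library. The 5 of 9 epithelial markers in the table summed to 18.8 and 19.9 FPKM in Control and 38.0 and 36.8 FPKM in iRhom1 KO libraries, with the keratin Krt8 at 0.0278 and 0 FPKM in Control and 6.80 and 7.03 FPKM in iRhom1 KO. The 4 of 6 mesenchymal markers in the table summed to 41.5 and 38.1 FPKM in Control and 51.7 and 56.9 FPKM in iRhom1 KO. The part of these marker differences in the results was not tested. In bulk RNA, fewer cells of a kind and less RNA per cell cannot be told apart.

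Most genes of the pump and of its scaffold were lower in iRhom1 KO cells. Of the 38 genes, 32 passed the filter on low values, each of them in both groups. Of these 24 were called lower, beside the 21.9% of all tested genes that were called lower, and from the way the family was chosen nothing is read from that share. None was called higher by limma, against 10.7% of all tested genes, and the count stayed at 0 with robust limma and at an unadjusted p under 0.05, by which 27 were lower. With trimmed mean scaling 1 gene, Atp6v1g1, was higher at that unadjusted p. In 29 of the 32 both iRhom1 KO libraries lay below both Control libraries, which 46.1% of all tested genes did, and in 1 both lay above, which 25.9% of all tested genes did. The median log2 fold change of the 32 genes was -0.74. A fit without 1 library leaves a lone library in a group, assumed to vary like the others, so calls kept in such fits are weak support. Of the 24 genes called lower, 20 stayed called when each library was left out in turn, and the exceptions were Atp6v0e, Lamtor4, Lamtor5 and Tsc1.

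**Figure D1:**
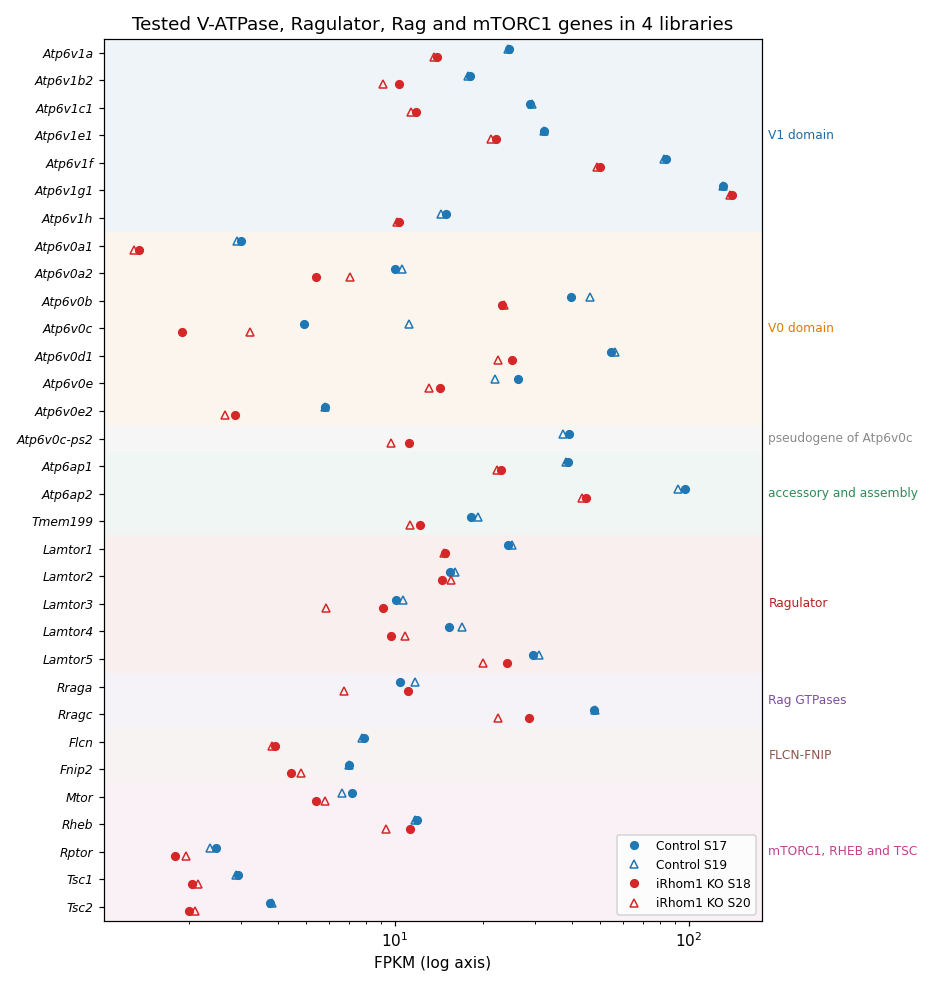
FPKM (log axis) of the 32 tested genes in the 2 Control libraries (blue) and the 2 iRhom1 KO libraries (red), 1 point per library, with genes grouped by role. Blue points lie to the right of red points in 29 genes, Atp6v1g1 has both red points to the right, and the points of Lamtor2 and Rraga overlap.

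The 6 genes below the filter were, apart from Slc38a9, minor forms or minor rows. They were Atp6v1c2, Atp6v1g2 and Atp6v0a4, which encode forms of subunits C, G and a with restricted tissue expression, the amino acid sensor Slc38a9, the neighbour gene Atp6v1fnb and the pseudogene Atp6v0c-ps1. The highest of them, Atp6v0a4, averaged 0.376 FPKM in Control libraries and 0.419 FPKM in those of iRhom1 KO, while the tested gene with the lowest Control mean, Rptor, stood at 2.42 FPKM there. Slc38a9, which couples lysosomal arginine to the Rag GTPases, averaged 0.279 and 0.223 FPKM. Atp6v1d, Atp6v0d2, Rragb, Rragd and Fnip1 were not among the gene symbols and so could not be analysed here.

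In the V1 domain 6 of the 7 tested genes were called lower, with a median log2 fold change of -0.75. Atp6v1a encodes subunit A, which with subunit B forms the ring that binds and hydrolyses ATP. It was at 24.5 and 24.2 FPKM in Control and 13.9 and 13.6 FPKM in iRhom1 KO, a log2 fold change of -0.80 (SE 0.059). Atp6v1b2, the widely expressed form of subunit B, went from 18.1 and 17.8 FPKM to 10.3 and 9.14 FPKM (log2 fold change -0.85, SE 0.083). Both ring subunits thus stood at 56.4% and 54.4% of their Control means, and no library overlapped with the other group.

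The other V1 genes differed in size of change. Atp6v1c1 encodes subunit C, which binds the stator stalks and leaves when the pump comes apart. It was at 28.9 and 29.2 FPKM in Control and 11.9 and 11.4 FPKM in iRhom1 KO, and its log2 fold change of -1.28 (SE 0.061) was the furthest from 0 in V1. Atp6v1f, for subunit F of the central rotor, was at 84.0 and 82.8 FPKM against 49.9 and 48.6 FPKM (log2 fold change -0.75, SE 0.057). The smallest V1 difference that was called was that of Atp6v1h, for the regulatory subunit H, with 14.98 and 14.41 FPKM against 10.4 and 10.2 FPKM (log2 fold change -0.49, SE 0.063). The FPKM of Atp6v1c1 relative to that of Atp6v1a was 1.18 and 1.21 in Control and 0.855 and 0.837 in iRhom1 KO, so that subunit C was the more abundant message of the pair in Control libraries and the less abundant in iRhom1 KO libraries.

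Subunits E and G pair to form the peripheral stalks, and their messages went different ways. Atp6v1e1, for subunit E, was at 32.2 and 32.3 FPKM in Control and 22.1 and 21.3 FPKM in iRhom1 KO (log2 fold change -0.56, SE 0.059). Atp6v1g1, the widely expressed form of subunit G, had the highest FPKM of the family in each group, with 131 and 130 FPKM in Control and 140 and 138 FPKM in iRhom1 KO. Both iRhom1 KO libraries lay above both Control libraries, yet the log2 fold change of 0.09 (SE 0.056) was not called. With trimmed mean scaling it was 0.19, also without a call. The ratio of Atp6v1g1 to Atp6v1e1 in FPKM was 4.07 and 4.03 in Control and 6.35 and 6.47 in iRhom1 KO. The FPKM of the other 6 tested V1 genes summed to 203 and 201 in Control and 118 and 114 in iRhom1 KO.

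The place of Atp6v1g1 in the genome set it apart as well. It lies on chromosome 4 of GRCm38 (chr4:63544772-63550750), where the 24 tested genes within 5 Mb had a median log2 fold change of 0.50, and its difference from that median was -0.41. Rraga, also on chromosome 4 (chr4:86575668-86577285), had neighbours at a median of 0.34 and a difference of -0.68 from it. Of the 32 tested genes, 31 lay below the median of their neighbours, though Lamtor2 differed from it by only -0.03. The exception was Rheb on chromosome 5, whose 49 tested neighbours had a median of -0.31. The share of all tested genes below their neighbours was not counted. As the family was chosen for lower values, nothing is read from this count.

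**Figure D2:**
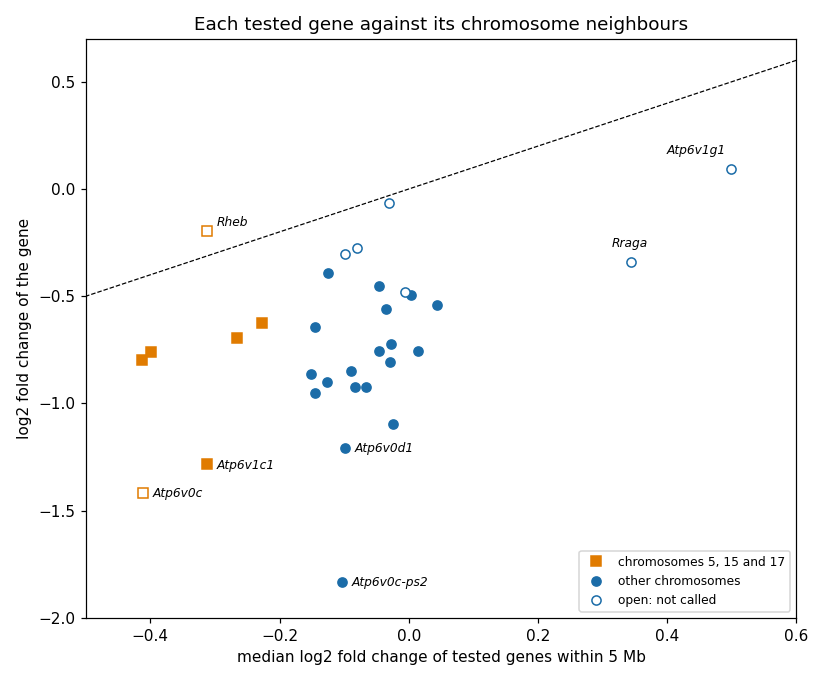
Log2 fold change of each of the 32 tested genes against the median log2 fold change of the tested genes within 5 Mb of it, with open symbols for genes not called and squares for the 7 genes on chromosomes 5, 15 and 17. The dashed line marks equal values, and only Rheb lies above it, while Atp6v1g1 and Rraga stand apart at neighbour medians of 0.50 and 0.34.

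In the V0 domain 6 of the 7 tested genes were called lower, with a median log2 fold change of -0.92. Atp6v0d1 encodes subunit d, which couples the turning rotor shaft to the membrane ring. It was at 54.6 and 56.1 FPKM in Control and 25.0 and 22.5 FPKM in iRhom1 KO (log2 fold change -1.21, SE 0.077). Atp6v0b, for the proteolipid c'' of the ring, was at 40.0 and 46.1 FPKM against 23.1 and 23.6 FPKM (log2 fold change -0.86, SE 0.090). The levels of the groups did not overlap for either gene. An annotated antisense gene, Gm12841, covers 11.8% of the exon bases of Atp6v0b, and whether counting used strand is not given in the sources used here.

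The a subunits form the proton half-channels and direct the pump to its compartment. Atp6v0a2, the form found on Golgi and endosomes, was at 10.1 and 10.6 FPKM in Control and 5.41 and 7.06 FPKM in iRhom1 KO (log2 fold change -0.70, SE 0.14), and its call was lost with trimmed mean scaling and without the filter on low values. The annotated antisense gene 4930404A12Rik covers 9.86% of the exon bases of Atp6v0a2. Atp6v0a1 was lower in level, at 2.999 and 2.904 FPKM against 1.35 and 1.30 FPKM (log2 fold change -0.92, SE 0.075). Tcirg1 encodes the a3 form of lysosomes and osteoclasts and does not match the family's names. It was added after its values were seen, at 15.3 and 14.9 FPKM in Control and 10.7 and 9.99 FPKM in iRhom1 KO (log2 fold change -0.53, SE 0.068, called lower). Over the 4 a genes Tcirg1 held the largest share of summed FPKM in each library, with 53.4% and 51.7% in Control and 59.9% and 53.2% in iRhom1 KO. The share of Atp6v0a1 was 10.5% and 10.1% in Control and 7.54% and 6.91% in iRhom1 KO, and the order of the forms was the same in each library.

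The small e subunits were both lower. Atp6v0e was at 26.3 and 22.0 FPKM in Control and 14.2 and 13.1 FPKM in iRhom1 KO (log2 fold change -0.80, SE 0.11), and Atp6v0e2 at 5.78 and 5.80 FPKM against 2.87 and 2.64 FPKM (log2 fold change -0.95, SE 0.074). Atp6v0e kept its larger share of the pair in both groups. It lies on chromosome 17, where its 122 tested neighbours had a median of -0.41, and its call was lost without S18 or without S20.

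Atp6v0c, for the main proteolipid of the ring, could not be told apart from its processed pseudogene Atp6v0c-ps2 over most of its coding sequence. It was listed at 4.91 and 11.2 FPKM in Control and 1.89 and 3.22 FPKM in iRhom1 KO, and its log2 fold change of -1.42 (SE 0.44) was not called. Without S17 it was -1.97 and called, and without S19 it was -0.86 and not called. The libraries of each group disagreed more for this gene than for any other tested V1 or V0 gene, although the groups did not overlap. Atp6v0c-ps2 was listed higher than its parent, at 39.3 and 37.4 FPKM in Control and 11.2 and 9.72 FPKM in iRhom1 KO, with the lowest log2 fold change of the family (-1.83, SE 0.090). Its 465 bases on chromosome 6 (chr6:37806086-37806550, plus strand) match the coding sequence of Atp6v0c in 464 positions. The 120 bases from the start codon that hold the single differing base are printed to show how little separates reads of the gene and of the copy, from the GENCODE transcripts of GRCm38 and with that base in capitals.
Atp6v0c: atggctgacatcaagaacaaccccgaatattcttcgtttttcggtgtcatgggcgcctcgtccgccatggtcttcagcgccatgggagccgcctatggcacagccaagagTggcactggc
Atp6v0c-ps2: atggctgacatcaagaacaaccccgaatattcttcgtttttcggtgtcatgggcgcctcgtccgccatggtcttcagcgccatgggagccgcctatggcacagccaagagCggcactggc
Reads from most of the coding sequence therefore cannot be assigned to one or the other, and neither value alone is a measure of the proteolipid message. Atp6v0c-ps1 was at 0.151 FPKM on average in Control. The sum of the 3 rows was 44.4 and 48.8 FPKM in Control and 13.12 and 12.96 FPKM in iRhom1 KO, with a log2 fold change of -1.80 that was called. Most of this sum is Atp6v0c-ps2, whose libraries already lay close together within each group. The rows are scaled to unlike lengths, 3384 exon bases for Atp6v0c and 465 for Atp6v0c-ps2. Their sum is therefore not the FPKM of 1 message, and nothing further is read from its call.

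The accessory subunits and the assembly factor among the family were called lower in 3 of 3 cases. Atp6ap2, the prorenin receptor that is also a transmembrane part of the pump, was the second highest gene of the family in Control libraries at 97.0 and 92.2 FPKM, against 44.7 and 43.4 FPKM in iRhom1 KO (log2 fold change -1.09, SE 0.062). Atp6ap1, known as Ac45, was at 38.8 and 38.3 FPKM against 22.9 and 22.3 FPKM (log2 fold change -0.76, SE 0.059). Tmem199, a factor for V0 assembly in the endoplasmic reticulum and Golgi, was at 18.1 and 19.2 FPKM against 12.2 and 11.3 FPKM (log2 fold change -0.64, SE 0.074). No library of these 3 genes overlapped with the other group. With the subunits and these genes together, 15 of 17 were called lower at a median log2 fold change of -0.80.

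**Figure D3:**
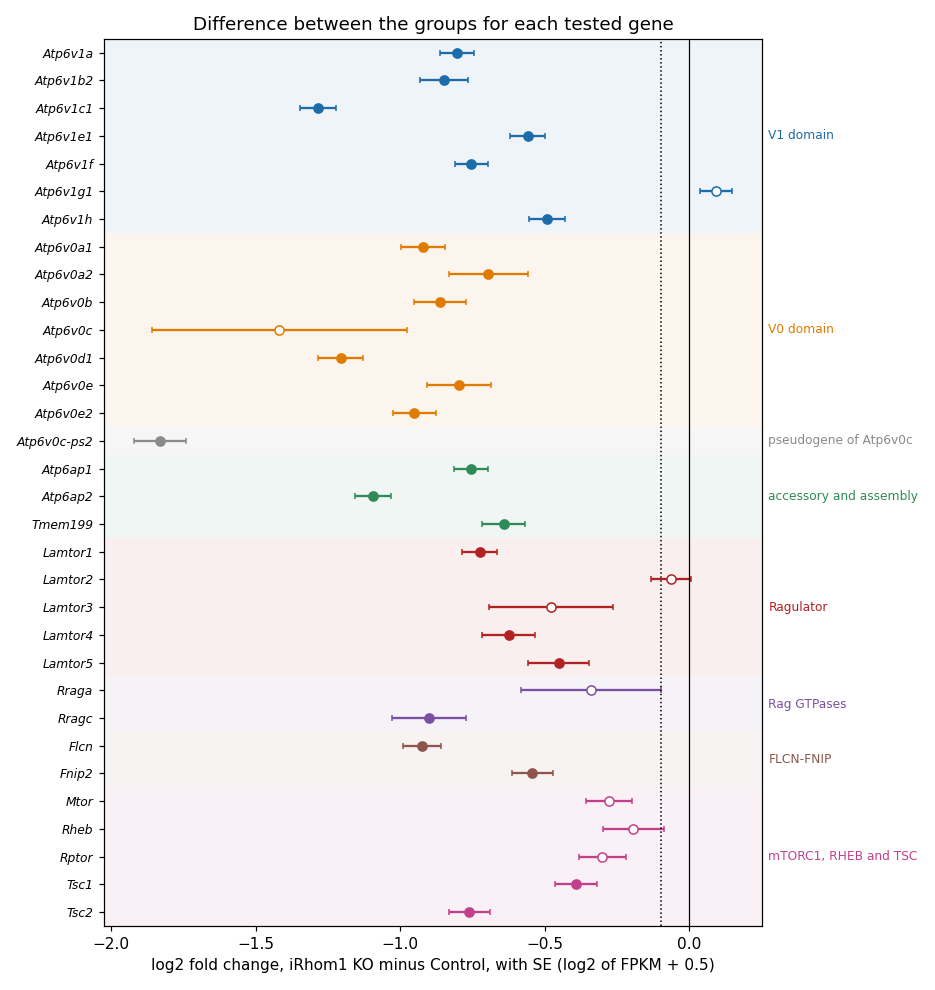
Log2 fold change, iRhom1 KO minus Control, of the 32 tested genes by role, with limma's standard error as bars, filled symbols for the 24 genes called lower and open symbols for the 8 not called. The dotted line is the median of all tested genes at -0.10, and the medians were -0.80 for the pump with its accessory and assembly genes and -0.30 for mTORC1, RHEB and TSC.

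Ragulator was lower in part. Lamtor1, the lipidated subunit that holds the complex on the membrane, was at 24.2 and 25.2 FPKM in Control and 14.8 and 14.7 FPKM in iRhom1 KO (log2 fold change -0.72, SE 0.061). Its exons share 18.7% of their bases with Lrrc51 on the other strand. Lamtor4 was at 15.34 and 17.005 FPKM against 9.74 and 10.9 FPKM (log2 fold change -0.63, SE 0.093), and Lamtor5 at 29.5 and 31.0 FPKM against 24.0 and 20.1 FPKM (log2 fold change -0.45, SE 0.11). These form one of the dimers that Lamtor1 wraps, and both were called lower. The call of Lamtor4 was lost without S18, and that of Lamtor5 without S17, S19 or S20 and without the filter on low values.

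The other dimer of Ragulator, Lamtor2 with Lamtor3, was not called. Lamtor2 was at 15.4 and 16.1 FPKM in Control and 14.5 and 15.5 FPKM in iRhom1 KO, and its groups overlapped. Its log2 fold change of -0.06 (SE 0.069) turned to 0.032 with trimmed mean scaling and to 0.057 with quantile normalization. Lamtor3 was at 10.1 and 10.7 FPKM against 9.14 and 5.86 FPKM (log2 fold change -0.48, SE 0.21). It was at -0.78 and called lower without S18, and at -0.18 and not called without S20. Its iRhom1 KO libraries were more than 1.5-fold apart, which was so for 3 of the 32 tested genes, with Atp6v0c and Rraga as the others.

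The Rag GTPases work as a heterodimer of RagA or RagB with RagC or RagD. Rragc was at 47.7 and 47.9 FPKM in Control and 28.6 and 22.5 FPKM in iRhom1 KO, with a log2 fold change of -0.90 (SE 0.13) that was called lower. Rragc shares 7.9% of its exon bases with 4930535I16Rik on the other strand. Rraga was at 10.4 and 11.8 FPKM in Control and 11.1 and 6.74 FPKM in iRhom1 KO. Its groups overlapped and its log2 fold change of -0.34 (SE 0.24) was not called. Without S18 it was -0.68 and called, and without S20 it was -0.0026 and not called, so that the value rests on which iRhom1 KO library is kept. Flcn, the GTPase activator of RagC, was at 7.86 and 7.73 FPKM against 3.91 and 3.83 FPKM (log2 fold change -0.92, SE 0.065). Its partner Fnip2 was at 6.97 and 6.98 FPKM against 4.46 and 4.81 FPKM (log2 fold change -0.54, SE 0.072). Both were called lower with tight agreement between libraries, Flcn at 49.6% of its Control mean.

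Mtor, Rptor and Rheb differed less than the median of the family, and Tsc2 did not. Mtor, the catalytic subunit, was at 7.18 and 6.63 FPKM in Control and 5.42 and 5.81 FPKM in iRhom1 KO (log2 fold change -0.28, SE 0.079). Rptor, which binds the Rag heterodimer, was at 2.48 and 2.36 FPKM against 1.80 and 1.95 FPKM (log2 fold change -0.30, SE 0.081). Rheb, the activating GTPase, was at 11.9 and 11.7 FPKM against 11.3 and 9.36 FPKM (log2 fold change -0.19, SE 0.10). None of these 3 was called, although in each both iRhom1 KO libraries lay below both Control libraries, and Rptor was called with robust limma. Of the TSC genes that restrain Rheb, Tsc2 was at 3.78 and 3.83 FPKM against 1.99 and 2.09 FPKM (log2 fold change -0.76, SE 0.072) and Tsc1 at 2.93 and 2.88 FPKM against 2.04 and 2.15 FPKM (log2 fold change -0.39, SE 0.074). Both were called lower, but Tsc1 lost its call without any one library, with quantile normalization and without the filter. Tsc2 lies on chromosome 17, where its 120 tested neighbours had a median of -0.40, and shares 7.2% of its exon bases with Pkd1 on the other strand.

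The lower values were found on chromosomes with and without a shift of their own. Chromosomes 5, 13, 15 and 17 held 9 of the 38 genes, and of the 7 tested there 5 were called lower at a median log2 fold change of -0.76. On the other chromosomes 19 of 25 were called lower at -0.72. Both counts stand beside the 21.9% of all tested genes called lower, and nothing is read from them. With the median of its chromosome subtracted from each gene, the median of the 32 genes was -0.53. It was -0.42 for those on chromosomes 5, 13, 15 and 17 and -0.67 for those on the others. The part of the chromosome shifts in the differences was not tested. Rheb, at -0.19, was then at 0.03.

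Promoter sequences of the family were searched for the letters CACGTG, the core of the E-box that MITF, TFE3 and TFEB bind in promoters of lysosomal genes. The sequence is its own reverse complement, so both strands read alike. RefSeq promoters of GRCm38.p6, from 250 bases before to 50 bases after each start site, were matched by symbol for 30 of the 38 genes. Of these 8 held the letters, as did 8.09% of all 27025 genes with a promoter in the same table. Each is printed on the strand of its gene with the matched letters in capitals and 12 bases on either side, so that the flanks can be compared.
Atp6v1a (chr16:44139373-44139402, minus strand): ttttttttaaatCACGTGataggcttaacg
Atp6v0b (chr4:117887348-117887377, minus strand): gtgcgcgggggtCACGTGgggtcggcgcat
Atp6v0d1 (chr8:105566050-105566079, minus strand): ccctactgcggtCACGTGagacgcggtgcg
Atp6v0e (chr17:26676387-26676416, plus strand): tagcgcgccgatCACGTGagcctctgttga
Lamtor1 (chr7:101905757-101905786, plus strand): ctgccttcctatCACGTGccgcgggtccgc
Lamtor4 (chr5:138255350-138255379, plus strand): gcagaaagttaaCACGTGaacagcttttca
Rragc (chr4:123917309-123917338, plus strand): ggtgattccgggCACGTGatagtaccactt
Rheb (chr5:24842440-24842469, minus strand): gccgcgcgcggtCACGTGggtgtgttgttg
The longer form TCACGTGA, which contains the shorter one and is also its own reverse complement, occurred in Atp6v1a, Atp6v0d1 and Atp6v0e, and in 1.12% of all genes with a promoter. Lamtor4 and Atp6v0b each held the shorter letters at a second place. In Atp6v0b the matches begin 36 and 18 bases before the start site.

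The 150 bases before the start sites of Atp6v0b, with both matches, and of Flcn, without one, are printed whole as examples of each kind. The pair was picked with its values in view, and nothing is read from it.
Atp6v0b (chr4:117887330-117887479, minus strand): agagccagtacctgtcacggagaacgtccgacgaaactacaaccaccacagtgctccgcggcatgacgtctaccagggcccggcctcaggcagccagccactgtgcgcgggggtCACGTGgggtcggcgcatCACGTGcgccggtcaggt
Flcn (chr11:59810040-59810189, minus strand): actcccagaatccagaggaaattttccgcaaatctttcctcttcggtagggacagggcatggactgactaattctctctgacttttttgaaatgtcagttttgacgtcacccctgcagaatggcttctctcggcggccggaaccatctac
Of the 8 genes with CACGTG in the window 7 were called lower, at a median log2 fold change of -0.80. Of the 17 tested genes with a window that lacked it 12 were called lower, at -0.64. Both counts stand beside the 21.9% of all tested genes called lower, in a family chosen for lower values. Tested genes without a window are in neither count, namely Atp6v0a2, Atp6v1b2, Atp6v1c1, Atp6v1g1, Atp6v1h, Lamtor3 and Atp6v0c-ps2. A match describes the letters of the window and not a bound site, and its part in the differences was not tested. The genes of the factors were low in level. With all libraries kept, none of the 3 was called in either direction by limma or robust limma, or passed an unadjusted p of 0.05. Only their RNA was measured, which does not give the activity of the factors. Tfe3 was at 3.05 and 3.34 FPKM in Control and 2.97 and 2.77 FPKM in iRhom1 KO, Tfeb at 1.28 and 1.35 FPKM against 0.968 and 1.35 FPKM, and Mitf at 2.24 and 2.47 FPKM against 2.19 and 1.59 FPKM. The groups overlapped for Tfeb and not for the other two.

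Other genes of the lysosome and of the mTORC1 pathway were followed in lists written from general knowledge, with lower lysosomal genes in these data already known. Their counts stand beside 21.9% of all tested genes called lower and 10.7% called higher, and are a description. Among lysosomal membrane proteins and transporters 13 of 18 tested genes were called lower and 0 called higher by limma (0 also at an unadjusted p under 0.05 and with robust limma), at a median log2 fold change of -0.60. They included the abundant glycoprotein Lamp1, at 502 and 481 FPKM in Control and 175 and 176 FPKM in iRhom1 KO (log2 fold change -1.48, SE 0.060), and Clcn7, a chloride-proton exchanger that works beside the pump, at 8.79 and 8.40 FPKM against 3.48 and 3.21 FPKM (log2 fold change -1.24, SE 0.076). Gpnmb and Cd68 were also called, with log2 fold changes of -1.67 and -1.62. Each of the 4 had iRhom1 KO libraries well below its Control libraries. Fewer genes of this list were called lower without S18, S19 or S20, where its median lay between -0.64 and -0.54.

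Among lysosomal hydrolases and their activators 21 of 33 tested genes were called lower and 2 higher, at a median log2 fold change of -0.45. The carboxypeptidase Ctsa was at 25.2 and 24.6 FPKM in Control and 8.92 and 9.26 FPKM in iRhom1 KO (log2 fold change -1.41, SE 0.062). The activator precursor Psap was at 204 and 199 FPKM against 112 and 115 FPKM (log2 fold change -0.83, SE 0.058). The glycosidase Hexa had a log2 fold change of -1.20. Going the other way, the protease Ctso had a log2 fold change of 0.77 (SE 0.12) and Naglu, which degrades heparan sulfate, of 0.46 (SE 0.078), and both were called higher. With quantile normalization the counts of this list were 17 lower and 3 higher, and without S20 they were 14 lower and 1 higher.

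The factors that assemble or regulate the pump gave 3 of 6 lower and 0 higher by limma (0 also at an unadjusted p under 0.05 and with robust limma). Vma21, the chaperone of V0 assembly in the endoplasmic reticulum, was at 6.89 and 6.69 FPKM in Control and 1.92 and 1.69 FPKM in iRhom1 KO (log2 fold change -1.66, SE 0.084), without overlap. Oxr1, which takes part in disassembly of the pump, had a log2 fold change of -0.85 and Wdr7 one of -0.79. Ccdc115, the partner of Tmem199, was at 3.29 and 2.36 FPKM in Control and 2.14 and 6.04 FPKM in iRhom1 KO, so that its libraries disagreed within each group and no call was made. Among the mannose 6-phosphate sorting genes 2 of 5 were called lower. These were Gnptg, with a log2 fold change of -1.37, and the receptor Igf2r, at 11.4 and 9.65 FPKM in Control and 4.88 and 5.11 FPKM in iRhom1 KO, both on chromosome 17, where the median of all tested genes was -0.38.

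**Figure D4:**
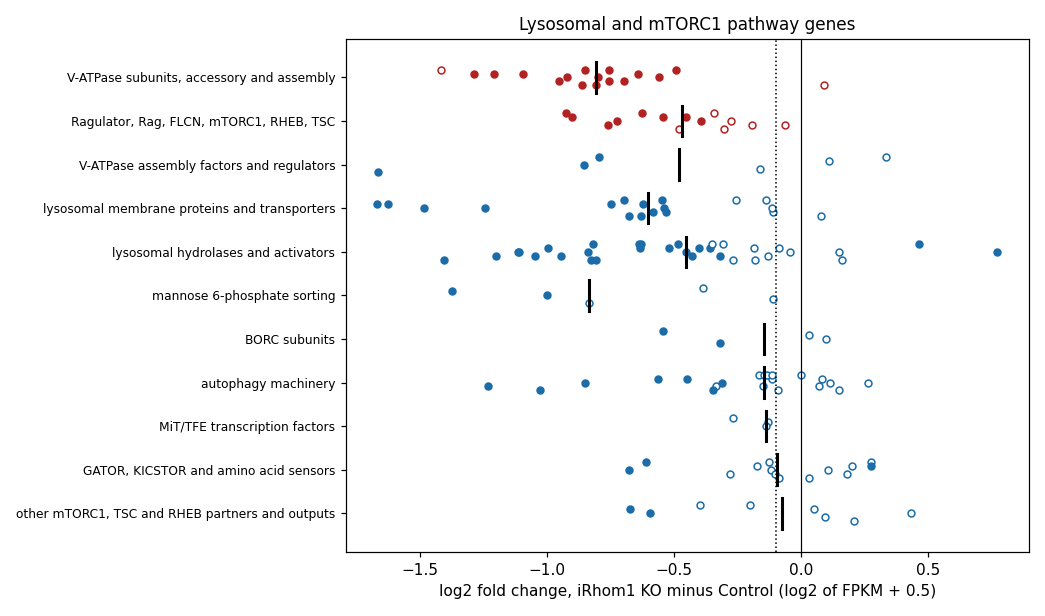
Log2 fold change, iRhom1 KO minus Control, of each tested gene of the family (red, in 2 rows, without Atp6v0c-ps2) and of the pathway lists (blue), with filled symbols for called genes, black bars for medians and a dotted line at the median of all tested genes (-0.10). The pump, its assembly factors and regulators, the lysosomal membrane proteins, the hydrolases and the mannose 6-phosphate sorting genes have medians at or below -0.45. GATOR with the amino acid sensors and the other mTORC1 partners have medians of -0.09 and -0.07. The mannose 6-phosphate median of -0.84 is the value of Nagpa, which was not called.

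The amino acid sensing parts and the further partners of mTORC1 were nearer to the median of all genes. Among GATOR, KICSTOR and amino acid sensor genes 2 of 14 tested were called lower and 1 higher, at a median of -0.09. Those lower were Wdr24 of the GATOR2 complex, on chromosome 17, with a log2 fold change of -0.68, and the leucine-sensor family gene Sesn1, with -0.61. The arginine sensor Castor1 was at 7.11 and 7.07 FPKM in Control and 8.54 and 8.82 FPKM in iRhom1 KO, with a log2 fold change of 0.27 that was called higher, though not without any one library. The other mTORC1, TSC and RHEB partners gave 2 of 8 lower, Telo2 (-0.67) and the mTOR subunit Mlst8 (-0.59), both on chromosome 17. None of the 8 was called higher by limma or robust limma, or was higher at an unadjusted p under 0.05, but with trimmed mean scaling and with quantile normalization 1 was higher at that unadjusted p. Without S20 the counts were 0 lower and 1 higher, which was Tti1, named after its values were seen, at 4.36 and 4.62 FPKM in Control and 8.25 and 4.70 FPKM in iRhom1 KO.

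Of the BORC subunits, which bind Ragulator and move lysosomes along microtubules, 2 of 4 were called lower, against 1 with either scaling and 0 without S19 or without S20. Bloc1s2 had a log2 fold change of -0.54 and Borcs8 of -0.32, while Borcs5 and Borcs6 were at 0.03 and 0.10 without a call. Of 21 tested autophagy genes 7 were called lower, beside 21.9% of all tested genes, and the median of -0.15 was near the -0.10 of all tested genes. The count was 5 with either scaling and without S19 or S18, and 4 without S17 or S20. They included Map1lc3b, at 6.67 and 6.61 FPKM in Control and 2.58 and 2.51 FPKM in iRhom1 KO (log2 fold change -1.23, SE 0.067), Gabarap (-1.02), Atg7 (-0.85) and Gabarapl2 (-0.45). Gabarapl1, of the same family, was at 28.3 and 29.5 FPKM against 31.8 and 26.2 FPKM and its groups overlapped. No autophagy gene was called higher by limma or robust limma, and none was higher at an unadjusted p under 0.05, by which 3 were higher with trimmed mean scaling, 4 with quantile normalization and 2 without S20.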

How the data were processed

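The deposited table gives FPKM per gene and library, which the authors made with HISAT2 (alignment, GRCm38) and StringTie (quantification; versions not given in the sources used here). Columns name the group and a library tag but no replicate number. The authors' 2 comparison columns, a fold change and its log2, were not used. Of 21724 rows, 19 that hold a number or date where a symbol belongs were dropped, and 54 rows sharing 26 symbols were added up, giving 21677 symbols. GENCODE M21 (GRCm38) gave positions for 21109.

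Genes that averaged 1 FPKM or more in either group were fitted with limma 3.58.1 in R 4.3.3 on log2 of FPKM plus 0.5, with a variance trend and Benjamini-Hochberg adjustment over 10271 genes at 0.05. The pseudocount understates changes of low genes. With 2 libraries against 2 the lowest two-sided p of an exact permutation test is 0.333.

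The members and lists were chosen with earlier results of these data known. Values in every library are given for members called, for the main form of each subunit and for the Ragulator, Rag, FLCN, TSC, RHEB and mTORC1 genes, and each list is described by up to 4 genes per direction with the smallest p among those called, some by their log2 fold change alone. One gene that this rule names is not reported here. Tcirg1, Ccdc115, Gabarapl1, Tti1, Borcs5, Borcs6, the MiT/TFE factors, Krt8 and Apobec2 are additions to this rule, picked with their values in view. Alternatives were pseudocounts of 0.1 and 1, no filter, a filter at 5 FPKM, trimmed mean scaling, quantile normalization, robust limma, the highest row of a shared symbol, subtraction of chromosome medians and each library left out.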

Additional observations from a re-analysis of the deposited data

How the results depend on the processing

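With 2 libraries a group, leaving one out leaves a lone library that is assumed to vary like the others. The count of genes called lower was 24, and lay between 21 and 25 under the alternatives over the family, and between 21 and 23 without 1 library; none was called higher under any of them. The median log2 fold change of -0.74 moved to -0.68 with a pseudocount of 1, -0.63 without the filter, -0.64 with trimmed mean scaling, -0.62 with quantile normalization and -0.53 with chromosome medians subtracted, and lay between -0.75 and -0.73 without 1 library. It was -0.72 with Atp6v0c summed with its pseudogenes and also without the genes of chromosomes 5, 13, 15 and 17 (19 called lower), both chosen after seeing the data. Lamtor2 turned from -0.06 to 0.032 with trimmed mean scaling and to 0.057 with quantile normalization. Over all pathway lists 52 genes were called lower, and 33 to 43 without 1 library, with 33 without S20. Higher calls were 3, against 5 with trimmed mean scaling and 5 with quantile normalization, and 1 to 2 without 1 library, with 1 without S17, S19 or S18. The calls of Castor1, Borcs8, Ctso, Naglu, Telo2, Mlst8, Bloc1s2, Wdr7, Atg7 and Gabarapl2 were lost without at least 1 library. The cause of these changes was not tested. No paired analysis was possible because the value columns carry no replicate numbers.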
